A study of Homo sapiens with 4 samples.

Results

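The genes described here are 37 genes of DNA double strand break repair and checkpoint signalling, given as a list of symbols and found in the count tables of the 4 libraries. All 37 were among the 26364 symbols of the tables. All 37 passed the expression filter, 1 CPM (the count as a share of library size) in at least 2 libraries, which 13378 genes passed. This filter, and the stricter filter at 10 CPM described below, used CPM before scaling. The CPM levels given for genes are scaled between libraries by TMM. They were divided by role into 13 homologous recombination genes, 8 end joining genes, 12 break signalling genes and 4 Fanconi anaemia genes. The cells were NCI-H460, a long-established line from a human lung carcinoma of the non-small cell type. The groups were DMSO 0 Gy (solvent, no radiation), DMSO 4 Gy (gamma radiation, then solvent), DZNep 0 Gy (2 uM 3-deazaneplanocin A, no radiation) and DZNep 4 Gy (both), and drug or solvent was present for 48 h in each. Each group was 1 library made with an mRNA kit, so no group has a replicate, and the labels do not say how many cultures went into a library.

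Ionising radiation breaks both strands of DNA. The MRN complex (MRE11A, RAD50 and NBN) binds the ends and activates the kinase ATM, which phosphorylates the histone variant H2AX. MDC1, the ubiquitin ligases RNF8 and RNF168 and the adaptor TP53BP1 then assemble on the marked chromatin, while ATR and CHEK1 respond to single-stranded DNA. Ends are rejoined directly by Ku, DNA-PK and the ligase complex, or are cut back and copied from the sister chromatid by homologous recombination, which works mainly in S and G2 phase. DZNep inhibits S-adenosylhomocysteine hydrolase and thereby slows methylation reactions in the cell.

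Most of the 37 genes stood lower in the irradiated libraries, and the median difference was smaller under DZNep than under DMSO. The log2 ratio of 4 Gy to 0 Gy was below 0 for 32 of 37 genes in DMSO and for 33 of 37 in DZNep, against 50.3% and 47.3% of all tested genes. Its median was -0.47 in DMSO and -0.27 in DZNep, against -0.003 and 0.02 over all tested genes. Drug and dose were also fitted together over the 4 libraries. With edgeR's quasi-likelihood test across all genes and an adjusted p under 0.05, 2 of the 37 fell with radiation, EXO1 and XRCC4. Across all genes 0.897% were called lower with radiation. The count of 2 moved with the settings. With testing limited to genes that reach 10 CPM in at least 2 libraries, 11 of 21 members fell, beside 441 of 7997 genes. With plain library size in place of TMM 5 fell, beside 266 of 13378 genes. With drug left out of the model 0 members fell, but 0 of 13378 genes were called in either direction. That last fit therefore says nothing particular to the members. The 11 were BARD1, BLM, CHEK1, DCLRE1C, EXO1, FANCD2, FANCI, H2AFX, RAD54L, XRCC5 and XRCC6, and XRCC4 was too low to be tested there. The 5 were EXO1, XRCC4, BLM, RAD54L and XRCC6. With drug and dose fitted together, edgeR's test called 0 of 37 higher, where 2.17% of all genes were. At an unadjusted p under 0.05 in that test, 0 of 37 were higher, beside 1531 of 13378 genes. At the same limit 15 of 37 were lower, beside 1221 of 13378 genes. DESeq2 called 0 members higher and 3 lower, beside 447 and 214 of all genes. Over all genes 290 were higher and 120 lower with radiation, and 351 and 266 with plain library size. DZNep was accompanied by rises of EXO1, H2AFX and RNF8 and by falls of ATR, RAD51C, MRE11A, RAD50 and PRKDC. These 3 rises and 5 falls among 37 stand beside 10.8% of all genes called higher and 12.3% called lower with DZNep, so the members' shares were near those of genes in general. With dose left out of the model ATR alone was called, where 355 of 13378 genes were called higher and 366 lower. Without the expression filter ATR, EXO1 and H2AFX were called.

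**Figure D1:**
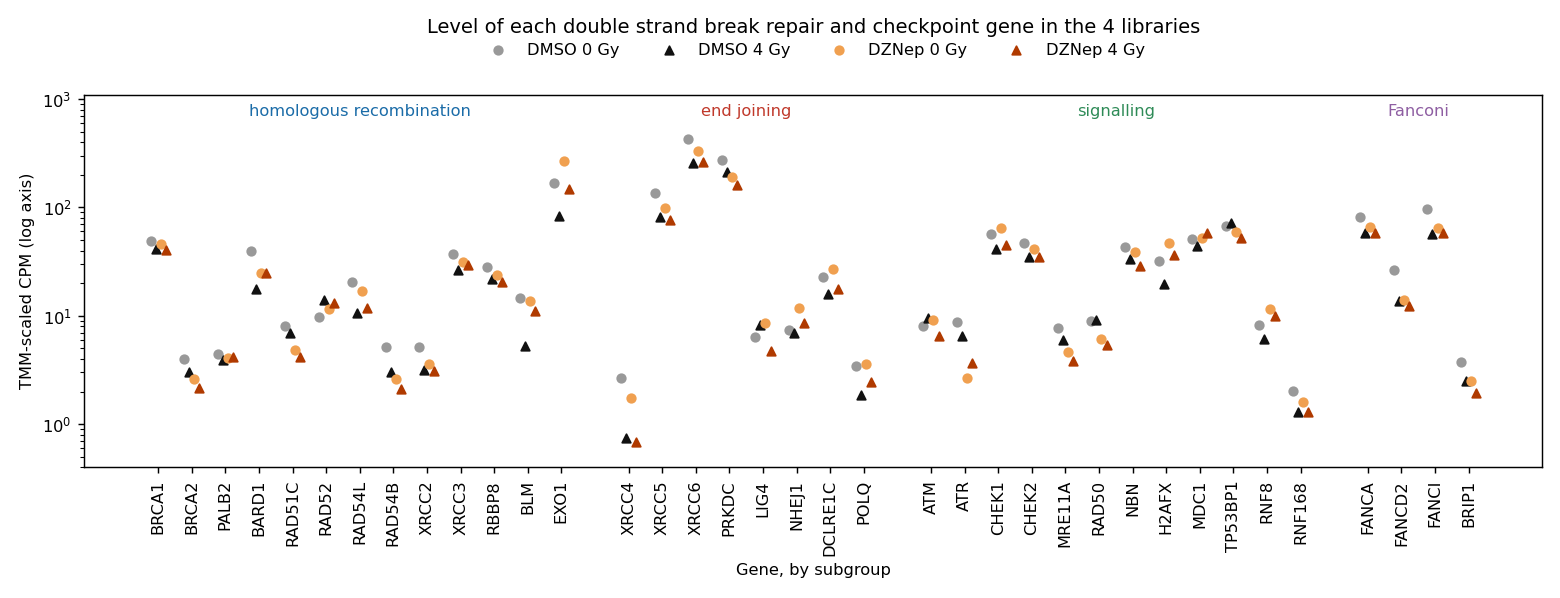
TMM-scaled CPM (log axis) of the 37 genes in the 4 libraries, 1 point per library, with circles for 0 Gy, triangles for 4 Gy, grey and black for DMSO and orange and brown for DZNep. The grey circle of DMSO 0 Gy is the highest point for 24 of the 37 genes.

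The library with the highest level was DMSO 0 Gy for 24 of 37 genes, against 27.96% of all tested genes. It was DZNep 0 Gy for 8, DMSO 4 Gy for 4 and DZNep 4 Gy for 1, against 21.4%, 25.6% and 25.1% of all tested genes. The lowest level was in DZNep 4 Gy for 19 and in DMSO 4 Gy for 16, against 24.1% and 24.8% of all tested genes. Both the radiation ratio in DMSO and the drug ratio at 0 Gy therefore rest on the library in which most members were highest, and with 1 library a group its treatment and the library itself cannot be told apart.

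The 9 members at 10 CPM or more and at least 1.5-fold lower at 4 Gy in DMSO included 3 whose promoter window holds letters of the E2F type, the recognition sequence of transcription factors that act at the start of S phase. The windows come from RefSeq on GRCh38.p14, run from 250 bases before to 50 bases after the start of the gene and so include the first bases of exon 1, and were matched for 32 of 37 members. The 4 windows printed here, 5′ to 3′ on the strand of the gene, are those of the 3 genes, EXO1 (chr1:241847954-241848253, plus strand), XRCC6 (chr22:41621045-41621344, plus strand) and FANCD2 (chr3:10026187-10026486, plus strand), and that of XRCC4 (chr5:83077297-83077596, plus strand), the member that fell most with radiation. Capitals mark an E2F-type match on either strand.
EXO1: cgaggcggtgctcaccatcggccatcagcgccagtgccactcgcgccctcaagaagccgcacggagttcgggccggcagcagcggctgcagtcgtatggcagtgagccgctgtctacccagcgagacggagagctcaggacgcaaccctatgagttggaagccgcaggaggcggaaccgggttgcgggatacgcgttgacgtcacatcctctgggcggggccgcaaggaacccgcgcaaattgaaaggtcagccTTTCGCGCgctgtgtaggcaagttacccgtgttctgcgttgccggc
XRCC6: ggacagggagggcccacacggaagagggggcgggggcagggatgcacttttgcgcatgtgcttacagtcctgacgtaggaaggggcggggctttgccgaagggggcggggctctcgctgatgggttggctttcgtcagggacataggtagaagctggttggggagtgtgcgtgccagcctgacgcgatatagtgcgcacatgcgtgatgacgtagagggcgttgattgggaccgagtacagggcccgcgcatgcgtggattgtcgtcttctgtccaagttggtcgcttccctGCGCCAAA
FANCD2: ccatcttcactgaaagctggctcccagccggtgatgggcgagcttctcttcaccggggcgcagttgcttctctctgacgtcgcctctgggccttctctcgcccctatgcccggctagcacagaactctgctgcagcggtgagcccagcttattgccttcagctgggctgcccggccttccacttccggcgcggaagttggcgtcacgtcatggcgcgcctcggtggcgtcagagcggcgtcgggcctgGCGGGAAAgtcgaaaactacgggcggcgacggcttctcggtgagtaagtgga
XRCC4: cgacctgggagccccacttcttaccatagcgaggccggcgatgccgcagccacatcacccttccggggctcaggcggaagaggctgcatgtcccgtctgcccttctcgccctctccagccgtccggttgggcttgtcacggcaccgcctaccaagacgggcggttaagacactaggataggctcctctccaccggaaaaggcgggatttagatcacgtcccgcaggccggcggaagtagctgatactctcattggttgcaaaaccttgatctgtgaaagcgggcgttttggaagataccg
The XRCC4 window holds no such match. The letters searched for on both strands were TTTCCCGC, TTTGGCGC, TTTCGCGC and TTTGCCGC, and no match overlapped one of the other motifs searched. They were found in 5 of 32 member windows (15.6%), those of EXO1, XRCC6, FANCD2, XRCC2 and FANCA, against 5.38% of 9737 promoters of tested genes and 3.31% of all 35116 promoters of the same length. Among the 9 members at least 1.5-fold lower in DMSO at 10 CPM or more they were in 3 of 7 windows, and among the other members in 2 of 25. Of those 9, the windows of BARD1, RAD54L, BLM and H2AFX held no match, and XRCC5 and FANCI had no window. With a minimum of 1 CPM, a limit chosen after seeing the data for this split, 14 members were that much lower, XRCC2 and XRCC4 among them, and the letters were in 4 of 11 windows against 1 of 21. CCAAT was in 17 of 32 member windows (53.1%), against 36.6% of promoters of tested genes and 34.6% of all promoters. TTTGAA or TTCGAA, the core of a cell cycle element, was in 5 of 32 (15.6%), against 11.2% and 16.4%. The members' share thus lay between those 2 backgrounds. A match is a description of letters and no evidence of binding.

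Among the break sensors, DZNep was accompanied by lower MRE11A and RAD50. MRE11A, the nuclease of the MRN complex, stood at 7.72 CPM in DMSO 0 Gy, 6.03 in DMSO 4 Gy, 4.64 in DZNep 0 Gy and 3.81 in DZNep 4 Gy. Both DZNep libraries lay below both DMSO libraries, and the drug effect on the log2 scale was -0.70 (SE 0.23, adjusted p = 0.0455). RAD50, the ATPase that tethers the ends, stood at 8.95 and 9.19 CPM in the unirradiated and irradiated DMSO libraries and at 6.16 and 5.41 CPM with DZNep (-0.65, SE 0.21, adjusted p = 0.0410). NBN, the subunit that recruits ATM, stood at 43.3, 33.2, 39.0 and 28.5 CPM in the same order of libraries as MRE11A. Its drug effect of -0.18 (SE 0.16, adjusted p = 0.441) missed the threshold, and whether it differed from that of its partners was not tested. The calls of MRE11A and RAD50 were close to the threshold and were lost with DESeq2 and without the expression filter. In GENCODE 29 the exons of RAD50 overlap those of another same-strand gene model along 79.7% of their length, so its count is uncertain. MRE11A has a processed pseudogene.

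ATR, the kinase that responds to single-stranded DNA and stalled forks, had the largest drug effect of the 37 genes. It stood at 8.75 and 6.54 CPM in DMSO at 0 and 4 Gy (1211 and 735 counts) and, with DZNep, at 2.67 and 3.63 CPM (346 and 413 counts). Both DZNep libraries lay below both DMSO libraries, and the log2 fold change was -1.28 (SE 0.27, adjusted p = 0.00492). Its 2-library ratios of DZNep to DMSO were -1.70 at 0 Gy (exact binomial 95% interval -1.89 to -1.54, counting error only) and -0.85 at 4 Gy (-1.03 to -0.67). A pseudogene on the opposite strand overlaps 16.4% of its exon length. ATR's partner ATRIP also fell with DZNep (-0.66, SE 0.21, adjusted p = 0.0366), from 15.9 and 10.4 CPM to 8.26 and 8.07 CPM.

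ATM, the apical kinase of the double strand break response, stood at 8.12 and 9.60 CPM in DMSO at 0 and 4 Gy and, with DZNep, at 9.10 and 6.51 CPM. The groups overlapped, and neither its drug effect (-0.20, SE 0.22, adjusted p = 0.565) nor its radiation effect (-0.12, SE 0.22, adjusted p = 0.808) passed. CHEK1, the checkpoint kinase downstream of ATR, stood at 56.9 and 64.5 CPM at 0 Gy in DMSO and DZNep and at 41.1 and 44.9 CPM at 4 Gy. Both irradiated libraries lay below both others, with a radiation effect of -0.50 (SE 0.16, adjusted p = 0.0968). CHEK2, the checkpoint kinase downstream of ATM, stood at 46.9 and 41.0 CPM at 0 Gy and at 35.2 and 34.7 CPM at 4 Gy, an effect of -0.33 (SE 0.16, adjusted p = 0.274). CHEK2 has 4 pseudogenes in GENCODE 29 that carry its name, so reads may have been split between copies.

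H2AFX, which encodes H2AX, stood at 32.2 and 19.7 CPM in DMSO at 0 and 4 Gy and, with DZNep, at 47.3 and 36.4 CPM. Both DZNep libraries lay above both DMSO libraries, a drug effect of 0.72 (SE 0.17, adjusted p = 0.00933), and the radiation effect was -0.54 (SE 0.17, adjusted p = 0.0960). RNF8, the ubiquitin ligase that binds MDC1, stood at 8.199 and 6.11 CPM in DMSO and at 11.6 and 10.02 CPM in DZNep, again without overlap (0.60, SE 0.20, adjusted p = 0.0437). That call was lost with DESeq2 and without the expression filter. RNF168, the ligase that extends the ubiquitin mark, stood at 1.29 to 2.01 CPM, with both irradiated libraries below both others, and did not pass (radiation effect -0.46).

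Neither adaptor passed for either effect. TP53BP1, which shields ends from resection, stood at 68.0 and 72.6 CPM in DMSO at 0 and 4 Gy and, with DZNep, at 59.02 and 52.7 CPM. Its drug effect was -0.33 (SE 0.16, adjusted p = 0.151) and its radiation effect -0.03 (SE 0.16, adjusted p = 0.925). MDC1 stood at 50.9 and 44.3 CPM in DMSO and at 51.7 and 57.99 CPM in DZNep (adjusted p = 0.395 for the drug and 0.966 for radiation). Exons of TUBGCP4 on the opposite strand overlap 28.7% of those of TP53BP1.

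**Figure D2:**
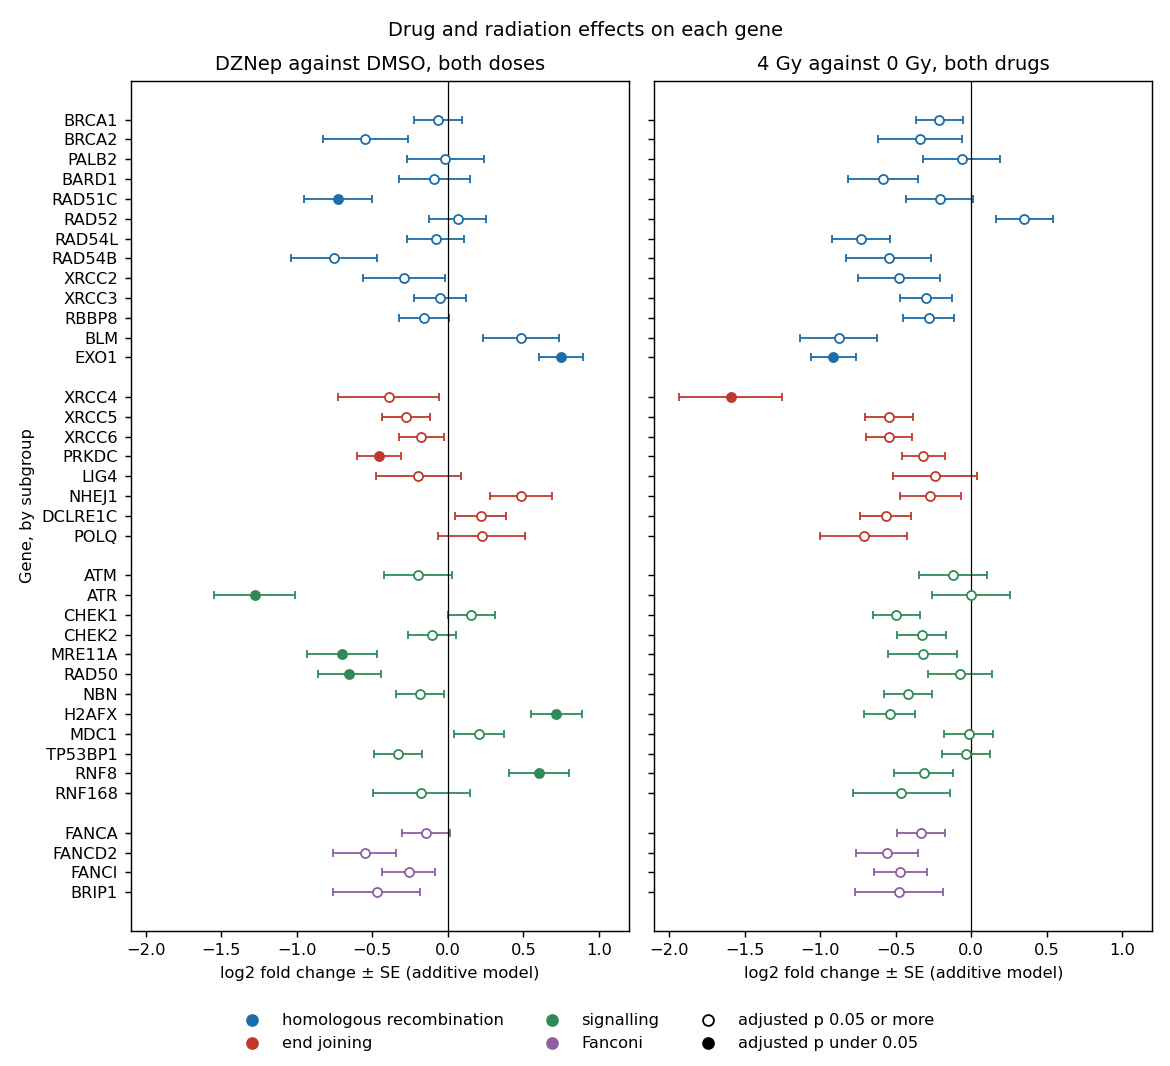
Log2 fold changes with standard errors (SE) of the 37 genes for DZNep against DMSO (left) and 4 Gy against 0 Gy (right), from the additive model over 4 libraries, coloured by subgroup. Filled points passed an adjusted p of 0.05: 8 genes on the left, led by ATR at -1.28, and EXO1 and XRCC4 on the right.

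Among end joining genes, XRCC4 fell most after radiation. XRCC4, the scaffold of the ligase LIG4, stood at 2.68 and 1.74 CPM at 0 Gy in DMSO and DZNep (371 and 225 counts) and at 0.748 and 0.686 CPM at 4 Gy (84 and 78 counts). Both irradiated libraries lay below both others, and the effect was -1.59 (SE 0.34, adjusted p = 0.0291). The ratio was -1.82 in DMSO (interval -2.20 to -1.497) and -1.32 in DZNep (-1.73 to -0.96). XRCC4 had the fewest counts of the 37 genes in the irradiated libraries, and its call was lost without the expression filter.

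The Ku genes encode the ring that binds broken ends. XRCC6, which encodes Ku70, was the highest of the 37 genes in every library at 78.5 to 131 CPM per kb of exon, where the median of the 37 stood at 2.50 to 3.79 CPM per kb. It stood at 431 and 333 CPM at 0 Gy in DMSO and DZNep and at 258 and 262 CPM at 4 Gy. Its radiation effect was -0.54 (SE 0.15, adjusted p = 0.0658), with a ratio of -0.74 in DMSO and -0.35 in DZNep. XRCC5, which encodes Ku80, stood at 135 and 97.9 CPM at 0 Gy and at 81.3 and 76.2 CPM at 4 Gy (-0.55, SE 0.16, adjusted p = 0.0790), with ratios of -0.73 and -0.36. For both genes the irradiated libraries lay below the others, and the effect did not pass, although both passed with the 10 CPM filter and XRCC6 also with plain library size. XRCC6 has 5 processed pseudogenes in GENCODE 29.

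PRKDC, the catalytic subunit of DNA-PK, stood at 275 and 212 CPM in DMSO at 0 and 4 Gy and, with DZNep, at 192 and 161 CPM. It fell with DZNep by 0.46 on the log2 scale (log2 fold change -0.46, SE 0.14, adjusted p = 0.0378), the smallest change among the 8 genes called, and the call was lost without the expression filter. DCLRE1C, the Artemis nuclease, stood at 22.6 and 27.3 CPM at 0 Gy in DMSO and DZNep and at 15.8 and 17.7 CPM at 4 Gy. Both irradiated libraries were lower, with an effect of -0.57 (SE 0.17, adjusted p = 0.0848). NHEJ1, the XRCC4-like factor, stood at 7.44 and 6.996 CPM in DMSO at 0 and 4 Gy and, with DZNep, at 11.8 and 8.63 CPM (drug effect 0.48, SE 0.20, adjusted p = 0.106). POLQ, the polymerase of the alternative pathway, stood at 1.87 to 3.58 CPM and was lower at 4 Gy in both drugs (-0.71, SE 0.29, adjusted p = 0.185). Another same-strand gene model overlaps 65.4% of the exon length of NHEJ1, and DCLRE1C has a pseudogene.

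LIG4, the ligase of the pathway, went the other way in the 2 drugs, and is named for that after its values were seen. It stood at 6.37 and 8.27 CPM in DMSO at 0 and 4 Gy (882 and 929 counts) and, with DZNep, at 8.51 and 4.69 CPM (1102 and 533 counts). Its ratio of 4 Gy to 0 Gy was 0.38 in DMSO (interval 0.24 to 0.51) and -0.86 in DZNep (-1.01 to -0.71). The difference of -1.23 was the largest in size among the 37 genes and has no error estimate.

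Among homologous recombination genes, EXO1 was called for both treatments, in opposite directions. EXO1, an exonuclease that resects ends and also serves mismatch repair, stood at 167 CPM in DMSO 0 Gy, 84.1 in DMSO 4 Gy, 266 in DZNep 0 Gy and 149 in DZNep 4 Gy. It was higher with DZNep at each dose (0.75, SE 0.15, adjusted p = 0.00340) and lower at 4 Gy with each drug (-0.91, SE 0.15, adjusted p = 0.00749). Both irradiated libraries lay below both others, while the drug groups overlapped because of the difference by dose. The level in DZNep 4 Gy was thus close to that in DMSO 0 Gy. Per kb of exon it stood at 20.3 to 64.2 CPM, above PRKDC in every library.

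BLM and BARD1 showed the largest differences between the drugs among members at 10 CPM or more. BLM, the helicase of the resection and dissolution steps, stood at 14.4 CPM in DMSO 0 Gy, 5.25 in DMSO 4 Gy, 13.6 in DZNep 0 Gy and 11.01 in DZNep 4 Gy, so DMSO 4 Gy alone was low. Its ratio of 4 Gy to 0 Gy was -1.46 in DMSO (interval -1.60 to -1.33) and -0.31 in DZNep (-0.41 to -0.20). BARD1, the partner of BRCA1 in a ubiquitin ligase, stood at 39.2 and 17.7 CPM in DMSO at 0 and 4 Gy and, with DZNep, at 25.1 and 24.6 CPM. Its ratio was -1.14 in DMSO (-1.22 to -1.07) and -0.03 in DZNep (-0.10 to 0.05). The radiation effects over both drugs were -0.88 (SE 0.25, adjusted p = 0.0754) for BLM and -0.59 (SE 0.23, adjusted p = 0.176) for BARD1.

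RAD54L, the motor protein that drives strand exchange, stood at 20.7 and 16.8 CPM at 0 Gy in DMSO and DZNep and at 10.7 and 11.8 CPM at 4 Gy. Both irradiated libraries lay below both others (-0.73, SE 0.19, adjusted p = 0.0552), and the gene passed with DESeq2, RLE or library size scaling, or the 10 CPM filter. Exons of LRRC41 on the opposite strand overlap 25.1% of its own. RAD51C, a paralogue that helps load the recombinase, fell with DZNep, from 7.997 and 7.01 CPM in DMSO at 0 and 4 Gy to 4.88 and 4.18 CPM (-0.73, SE 0.22, adjusted p = 0.0337), a call lost without the expression filter. RAD54B, a relative of RAD54L, stood at 5.13 and 3.04 CPM in DMSO and at 2.63 and 2.09 CPM in DZNep (-0.75, SE 0.28, adjusted p = 0.0719) and did not pass. Its exons overlap those of FSBP along 59.1% of their length.

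BRCA1, which promotes resection and recombinase loading, stood at 48.8 and 41.4 CPM in DMSO at 0 and 4 Gy and, with DZNep, at 45.7 and 40.2 CPM. It did not pass for the drug (-0.07, SE 0.16, adjusted p = 0.791) or for radiation (-0.21, SE 0.16, adjusted p = 0.486). BRCA2, the recombinase loader, stood at 4.01 and 3.03 CPM in DMSO and at 2.62 and 2.17 CPM in DZNep. Both DZNep libraries lay below both DMSO libraries, but the effect of -0.55 (SE 0.28, adjusted p = 0.182) did not pass. PALB2, which links BRCA1 to BRCA2, stayed between 3.94 and 4.42 CPM. RAD52, an annealing protein, was the only homologous recombination gene with a radiation effect above 0 (0.35, SE 0.19, adjusted p = 0.322), at 9.76 and 11.5 CPM at 0 Gy and 14.03 and 13.03 CPM at 4 Gy. XRCC2 (3.07 to 5.21 CPM), XRCC3 (26.6 to 37.2 CPM), both paralogues of the recombinase, and RBBP8, the MRE11A cofactor CtIP (20.6 to 27.96 CPM), were each lower at 4 Gy in both drugs and did not pass. Opposite-strand exons of KLC1 overlap 76.7% of those of XRCC3, so its count is uncertain, and RBBP8 has a processed pseudogene.

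In each of the 4 Fanconi genes DMSO 0 Gy stood above the other 3 libraries, a pattern not particular to them. DMSO 0 Gy was also highest for 11 of 13 homologous recombination genes, 4 of 8 end joining genes and 5 of 12 signalling genes. The same held for 22 of 30 genes of S phase and replication, and for 27.96% of all tested genes. FANCD2, which is ubiquitinated at crosslinks and stalled forks, stood at 26.3 CPM in DMSO 0 Gy and at 13.8 CPM in DMSO 4 Gy, 13.9 in DZNep 0 Gy and 12.2 in DZNep 4 Gy. FANCI, its partner, stood at 96.9 CPM against 56.3, 65.1 and 58.5 CPM, and FANCA, a core complex subunit, at 81.6 CPM against 58.5, 66.5 and 58.6 CPM. BRIP1, a helicase that binds BRCA1, stood at 3.71 CPM against 2.48, 2.50 and 1.93 CPM. The radiation ratio of FANCD2 was -0.93 in DMSO (interval -1.02 to -0.85) and -0.18 in DZNep (-0.28 to -0.08), and that of FANCI was -0.78 (-0.83 to -0.74) and -0.15 (-0.20 to -0.11). None of the 4 passed for either effect in edgeR's test, and DESeq2 called 0. At an unadjusted p under 0.05 in edgeR's test, 1 was lower with DZNep and 2 with radiation, beside 2582 and 1221 of 13378 genes. With the 10 CPM filter FANCD2 was called lower for both effects and FANCI for radiation. Opposite-strand exons of ZNF276 overlap 23.6% of those of FANCA, and FANCD2 has a pseudogene.

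**Figure D3:**
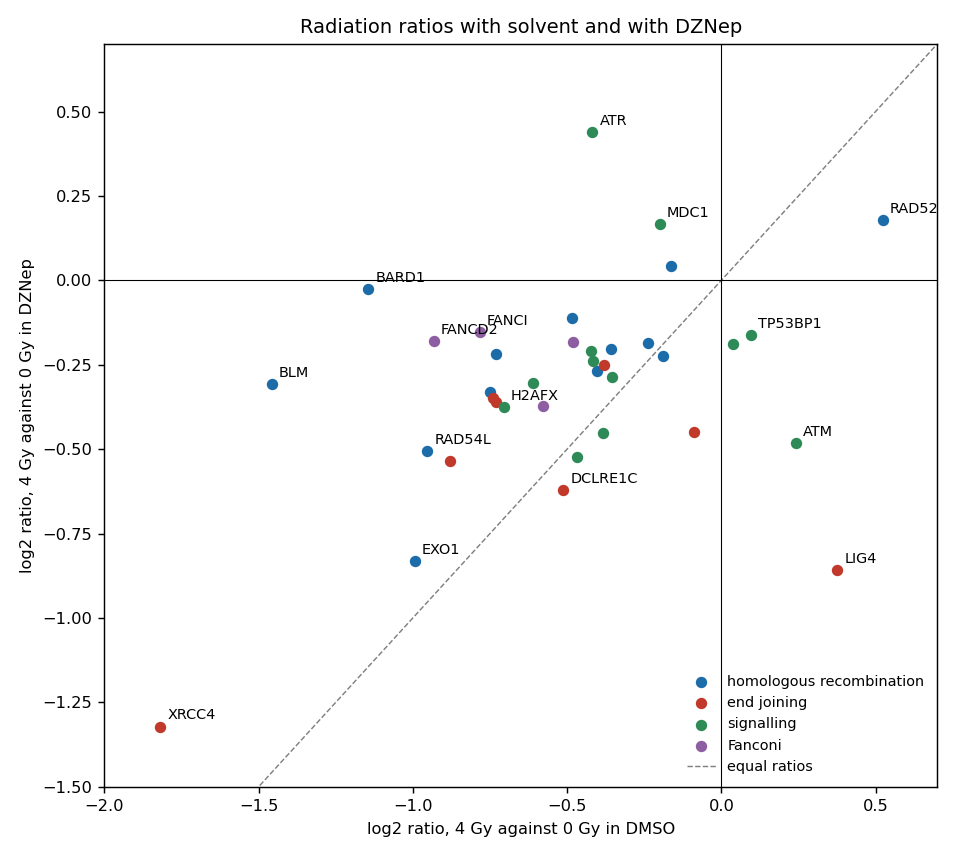
Log2 ratio of 4 Gy to 0 Gy in DMSO (horizontal) and in DZNep (vertical) for the 37 genes, coloured by subgroup, with a dashed line where both ratios are equal. Most points lie left of the line, with BLM at -1.46 and -0.31 and BARD1 at -1.14 and -0.03, while LIG4 and ATM lie right of it.

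In the ratios of 2 libraries, 9 of 21 members at 10 CPM or more were at least 1.5-fold lower at 4 Gy in DMSO, against 7.36% of genes at that level, and 0 were higher, against 8.67%. The 9 were BARD1, RAD54L, BLM, EXO1, XRCC5, XRCC6, H2AFX, FANCD2 and FANCI. In DZNep 2 of 23 were lower, EXO1 and DCLRE1C, against 4.03%, and 0 were higher, against 4.40%. Between drugs at 0 Gy, EXO1 and NHEJ1 were at least 1.5-fold higher with DZNep (2 of 23, against 11.3%) and BARD1 and FANCD2 lower (2 of 23, against 12.5%). At 4 Gy, BLM, EXO1, H2AFX and RNF8 were higher (4 of 22, against 11.0%) and 0 were lower, against 11.4%. The minimum of 10 CPM was applied to the higher library of each pair, for members and all genes alike. RNF8 and BLM at 4 Gy met it only in DZNep, with 6.11 and 5.25 CPM in DMSO. NHEJ1 at 0 Gy met it only in DZNep, with 7.44 CPM in DMSO, and BLM in DMSO only at 0 Gy. The counting of these genes therefore depends on the library in which they were high. None of these ratios has a replicate check.

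The radiation ratio in DZNep exceeded that in DMSO for 27 of 37 genes and was below it for 10. Over all tested genes it was below for 49.6%. Each such difference includes DMSO 0 Gy, the library in which 24 of 37 members were highest. The median difference was 0.21 on the log2 scale, against 0.004 over all tested genes, and it has no error estimate. The largest differences at 10 CPM or more were those of BLM (1.15), BARD1 (1.12), FANCD2 (0.75) and FANCI (0.63). The radiation ratios in the 2 drugs, which have no library in common, correlated across the 37 genes at r = 0.37 (rho = 0.27). Over all tested genes r was 0.41 (rho = 0.42). This is a description across genes of 1 pathway, which are not independent.

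**Figure D4:**
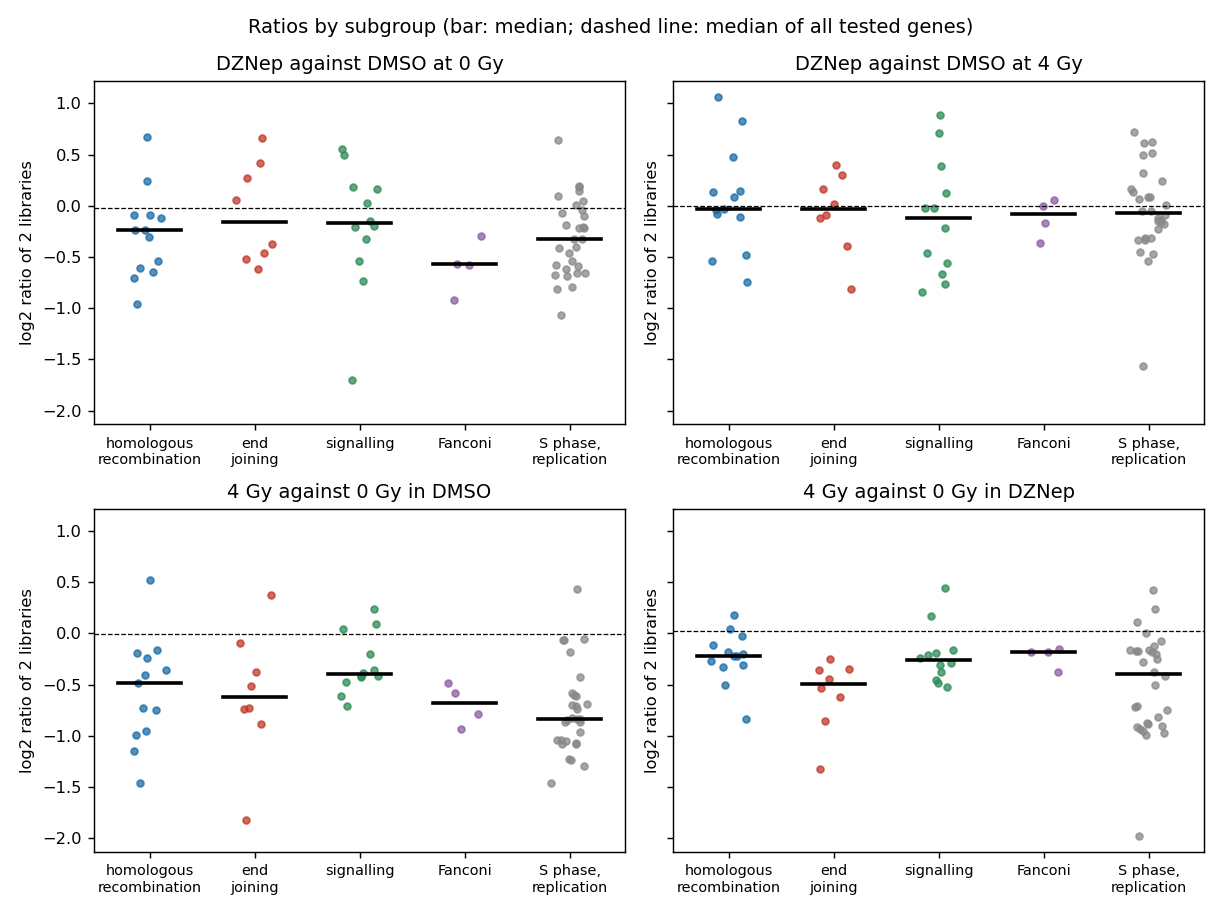
Log2 ratios of 2 libraries for the members of each subgroup and for 30 S phase and replication genes (grey), with a bar at the median of each and a dashed line at the median of all tested genes. After radiation in DMSO the subgroup medians run from -0.68 to -0.40, and in DZNep the end joining median of -0.49 is the lowest of the 4 subgroups.

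The median radiation ratio of every subgroup was nearer 0 in DZNep than in DMSO. Homologous recombination genes had a median ratio of -0.49 in DMSO and -0.22 in DZNep, and the Fanconi genes -0.68 and -0.18. End joining genes had -0.62 and -0.49, and signalling genes -0.40 and -0.26. The ratio was below 0 for 12 of 13 recombination genes, 7 of 8 end joining genes, 9 of 12 signalling genes and 4 of 4 Fanconi genes in DMSO, and for 11, 8, 10 and 4 in DZNep. For the drug at 0 Gy the medians were -0.24, -0.16, -0.17 and -0.57 for recombination, end joining, signalling and Fanconi genes. At 4 Gy they were -0.03, -0.04, -0.12 and -0.08. Differences between subgroups were not tested, and the median of the Fanconi genes rests on 4 values.

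Of 72 further genes of these pathways, 71 were measured, of which 1 rose and 10 fell with DZNep and 2 rose and 4 fell with radiation. Over all tested genes 10.8% were higher and 12.3% lower with DZNep, and 2.17% and 0.897% with radiation, so the 10 falls with DZNep are near the share of all genes. DESeq2 called 6 of the 71 lower with DZNep, without ATRIP, RMI1, SLX4 and XRCC1, and the same 4 lower with radiation. Their median radiation effect was -0.33, beside -0.34 for the 37 members. In the other recombination and resection genes, MCM8 (-1.02, SE 0.17), a helicase subunit, and DNA2 (-0.97, SE 0.18), a resection nuclease, fell with radiation. Both also fell with DZNep (-0.67, SE 0.16, and -0.61, SE 0.18), as did SMC6 (-0.81, SE 0.19), RMI1 (-0.89, SE 0.28), SFR1 (-0.77, SE 0.23) and SLX4 (-0.61, SE 0.20). In the other signalling genes, CLSPN (-1.18, SE 0.22), the adaptor of CHEK1 activation, and WEE1 (-0.80, SE 0.18), the mitotic inhibitor kinase, fell with radiation, and PPM1D (1.04, SE 0.25), the phosphatase that turns the signal off, rose. With DZNep, MAD2L2 (0.74, SE 0.17), a shieldin subunit, rose, and FAM175A (-1.16, SE 0.30), a BRCA1-A complex subunit, TIMELESS (-0.71, SE 0.23) and ATRIP fell. Outside these, POLL (0.70, SE 0.16), a gap-filling polymerase, rose with radiation and XRCC1 (-0.56, SE 0.18), a scaffold of single strand repair, fell with DZNep. Of 14 other Fanconi genes, edgeR's test and DESeq2 each called 0 for either effect. At an unadjusted p under 0.05 in edgeR's test, 3 were lower for DZNep and 7 for radiation, beside 2582 and 1221 of 13378 genes.

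Genes of S phase also stood lower after radiation, with a median radiation effect of -0.65 beside -0.34 for the 37 members. Of 30 S phase and replication genes, 12 fell with radiation and 2 with DZNep, against 0.897% and 12.3% of all tested genes. At 10 CPM or more, 22 of 28 were at least 1.5-fold lower at 4 Gy in DMSO, against 7.36% of genes at that level. In DZNep 11 of 28 were, against 4.03%. Their summed level was 2519 CPM in DMSO 0 Gy, 1363 in DMSO 4 Gy, 1940 in DZNep 0 Gy and 1420 in DZNep 4 Gy, and the median of their radiation ratios was -0.84 with DMSO and -0.39 with DZNep. In bulk RNA, fewer cells in S phase and less RNA per cell cannot be told apart, and the part of cell cycle phase in the members' differences was not tested.

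The libraries held 112461380 to 136594350 counts each, with TMM factors of 0.979 to 1.01. The keratin genes KRT8, KRT18 and KRT19 stood at 146 CPM or more in every library, while EPCAM and CDH1 were below 0.5 CPM. Among markers of fibroblasts, endothelium and blood, COL1A2, DCN, PECAM1, VWF, CDH5, PTPRC and CD3E were below 1 CPM in every library and HBB was at 0. COL1A1 stood at 8.90 to 18.8 CPM, COL3A1 at 3.96 to 9.001 CPM and CD68 at 60.1 to 88.2 CPM. Of these markers KRT8 and KRT18 rose with DZNep by log2 fold changes of 1.35 (SE 0.13) and 1.58 (SE 0.13), and COL3A1 (-0.74, SE 0.22, adjusted p = 0.0301) and COL1A1 (-0.54, SE 0.18, adjusted p = 0.0491, lost with DESeq2) fell. The part of these shifts in the members' differences with DZNep was not tested.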

How the data were processed

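RNA was counted in 4 libraries of NCI-H460 cells. What the authors deposited are unnormalized counts by gene symbol in a table for each library. The submitters' processing notes name TopHat, edgeR and hg19 without versions or roles. Which program counted the reads, on which annotation and whether by strand, is not stated. Without strand, overlapping genes cannot be told apart.

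Libraries were scaled by TMM in edgeR 4.0.16 (R 4.3.3). Drug and dose were fitted together over all 4 libraries, since no group has a replicate. The additive fit leaves 1 residual degree of freedom, to which moderation adds 11.5, with a common coefficient of variation of 0.163. Its p-values, adjusted by Benjamini-Hochberg over 13378 genes, reflect only how these libraries spread, whether or not they were separate cultures, and count departure from additivity as spread. SE was taken as the log2 effect over the square root of its F.

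Ratios of 2 libraries use a prior count of 2, and were counted at 1.5-fold or more where the higher of the pair reached 10 CPM. Their exact binomial 95% intervals omit the prior and hold no error beyond counting. Even values made up 55.9% to 58.1% of counts of 1 to 59, so some counts are perhaps mates of 1 fragment and the intervals too narrow. Exon lengths, overlaps and pseudogenes came from GENCODE 29 on GRCh38, not the build of the counts, and promoters from RefSeq.

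Values in every library are given for members past the threshold of either effect or at least 1.5-fold apart in a pair, for the 4 largest differences of radiation ratios at 10 CPM or more and for 11 fixed genes, and of the other pathway genes those past the threshold of either effect are named. Members, lists, tests and naming rule were chosen with earlier results of these data known. Alternatives were scaling by RLE or by library size alone, a filter at 10 CPM or none, DESeq2 1.42.0, a model without the other factor, robust estimation, other folds, minimums and prior counts, and other subgroup borders. The result of 1 marker gene is not reported here.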

Additional observations from a re-analysis of the deposited data

Results flagged for a closer look

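For 12 pairs of ratios the 2 drugs or the 2 doses moved a member in opposite directions, with both counting intervals on opposite sides of 0. None of these differences was tested, each rests on 1 library a group, and the intervals cover counting error only. How many of all tested genes meet the same rule was not counted, so these counts cannot be read as particular to the members.

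After radiation this held for 5 genes. LIG4 had a ratio of 0.38 in DMSO and -0.86 in DZNep, ATM 0.24 and -0.48, TP53BP1 0.095 and -0.16, ATR -0.42 and 0.44, and MDC1 -0.20 and 0.17. The first 3 were higher at 4 Gy with solvent and lower with the drug, and the other two the reverse.

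For DZNep against DMSO it held for 7 genes. BARD1 had a ratio of -0.64 at 0 Gy and 0.47 at 4 Gy, FANCI -0.57 and 0.055, RAD54L -0.30 and 0.14, and XRCC3 -0.24 and 0.14. LIG4 had 0.42 and -0.82, ATM 0.16 and -0.56, and RAD52 0.24 and -0.11. Ratios for the drug and for radiation share libraries, so LIG4 and ATM appear in both sets on the same 4 counts.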

How the results depend on the processing

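Scaling by RLE kept the number of members called within 1.5 times the reported one, and robust estimation left it unchanged. The 5 falls with DZNep became 3 with DESeq2, 2 with a 10 CPM filter, 1 without a filter and 1 without dose in the model, where the 3 rises became 0. ATR alone was called in that last fit. The 2 falls with radiation became 5 with library size scaling, 11 with a 10 CPM filter, 1 without a filter and 0 without drug in the model. The 10 CPM filter tested 7997 genes and 21 members, so that ATR, MRE11A, RAD50, RAD51C, RNF8 and XRCC4 were not tested, and FANCD2 was gained for DZNep. No member that was called changed direction. Over all genes, 1446 higher and 1640 lower with DZNep became 355 and 366 without dose, and 290 and 120 with radiation ranged from 0 and 0 without drug to 590 and 441 with the 10 CPM filter.

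At 2-fold the counts of members lower and higher with DZNep at 0 Gy were 0 and 0, 1 was higher at 4 Gy, and 2 and 0 were lower with radiation in DMSO and DZNep. With a minimum of 1 CPM, 8 and 5 were lower with DZNep at 0 and 4 Gy, and 14 and 4 with radiation in DMSO and DZNep.

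With the 10 CPM filter the median of recombination genes became 0.14 for the drug at 4 Gy and -0.72 for radiation in DMSO. That of end joining genes became -0.42 for the drug at 0 Gy and -0.35 for radiation in DZNep, that of signalling genes -0.064 and 0.054 for the drug at 0 and 4 Gy, and that of Fanconi genes -0.78 for radiation in DMSO. With RBBP8, BLM and EXO1 moved out, the recombination median for the drug at 0 Gy was -0.42. Without POLQ the end joining median was -0.37 for the drug at 0 Gy and -0.51 for radiation in DMSO. The other 116 checks of counts, medians and differences stayed within 1.5 times or 0.1 of the reported value.

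Leaving out 1 library leaves no residual degree of freedom, so that fit was not run. No paired analysis was possible because each group has 1 library and the labels give no replicate numbers.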
